A study of Rattus norvegicus with 9 samples.

Results

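Dividing B-cell precursors of the rat tibia were drawn from single-cell RNA sequencing of the osteotomy site by a rule on raw counts of unique molecular identifiers (UMIs). A cell was a member if it carried at least 2 UMIs of Ebf1 and at least 1 UMI each of Cd79a, Mki67 and Top2a, with 0 UMIs of Dntt and of Ms4a1. The rule found 17281 members among 114232 cells kept for having 200 or more genes and no more than 20% of UMIs from the mitochondrion, which is 15.1% of them. All animals were male Sprague-Dawley rats, 6 to 8 weeks old, with a circular 3-mm osteotomy of the proximal tibia and a 4-mm full-thickness wound on the back of the same foot. The TO arm had the osteotomy alone. The TOE arm also received radial extracorporeal shock waves at the osteotomy (3 bar, 300 impulses, 5 Hz) on day 2. The 4d libraries of that arm followed a further session on day 4. Libraries are named by arm, day and hour: TO_2d_0h, TO_2d_4h, TO_4d_4h, TO_4d_24h, TOE_2d_4h, TOE_2d_24h, TOE_4d_4h and TOE_4d_24h. Hours count from the session of that day in TOE and are the matching times in TO, which had no session. TO_2d_0h was an untreated sample of day 2. In TOE, the day and the number of sessions go together. TO_2d_24h was not analysed here. Each condition was 1 library, so no condition could be tested by itself. The design text counts 9 rats for 9 samples and ties no rat to a library, so p-values measure the spread between these libraries.

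Large pre-B cells are the dividing stage of B-cell development that follows rearrangement of the heavy chain. Their surrogate light chain, made of the products of Igll1 and the Vpreb1 genes, pairs with the heavy chain and Cd79a and Cd79b to form the pre-B-cell receptor, which together with interleukin-7 drives a burst of division. The recombinase genes Rag1 and Rag2 are held down while the cells divide and return in resting small pre-B cells, in which light chains are rearranged. The earlier pro-B cells carry Dntt, a polymerase that adds bases at heavy-chain joints, and later B cells carry Ms4a1.

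The surrogate light chain genes turned out to differ in level between the members and neighbouring stages, though Vpreb1b values overlapped with those of dividing Dntt-positive cells. The 250 bases upstream of their RefSeq start sites (build GRCr8) are therefore shown. Capitals mark CAGGTG, an E-box that E proteins such as the Tcf3 product can bind, and CCCNNGGG, a form of the Ebf1 motif. Both strands were searched.
Igll1, chr11:97642937-97643186, plus strand: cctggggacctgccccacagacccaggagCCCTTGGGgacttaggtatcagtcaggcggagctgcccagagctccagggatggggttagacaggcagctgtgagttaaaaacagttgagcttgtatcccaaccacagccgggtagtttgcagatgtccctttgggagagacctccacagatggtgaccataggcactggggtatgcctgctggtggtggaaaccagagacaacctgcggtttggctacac
Vpreb1a, chr11:97630924-97631173, plus strand: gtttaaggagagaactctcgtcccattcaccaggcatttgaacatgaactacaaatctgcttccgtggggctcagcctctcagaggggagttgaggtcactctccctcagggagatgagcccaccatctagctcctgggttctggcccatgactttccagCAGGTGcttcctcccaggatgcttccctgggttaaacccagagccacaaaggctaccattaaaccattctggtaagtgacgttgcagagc
Vpreb1b, chr11:96514405-96514654, minus strand: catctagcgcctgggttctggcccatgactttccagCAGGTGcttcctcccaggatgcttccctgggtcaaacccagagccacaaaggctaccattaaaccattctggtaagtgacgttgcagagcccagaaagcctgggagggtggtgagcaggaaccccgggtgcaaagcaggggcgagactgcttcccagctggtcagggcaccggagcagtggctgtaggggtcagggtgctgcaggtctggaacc
Igll1 held 1 CCCNNGGG match, and Vpreb1a and Vpreb1b held 1 CAGGTG match each. Of 33469 rat promoters of this length, 15.9% held CAGGTG and 10.8% held CCCNNGGG. A match is a description of letters and not a site of binding. Vpreb1a and Vpreb1b are near-identical copies, so reads may be split between them and their separate levels are uncertain.

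The label was checked against the data before any comparison, and the rule was found to gather a mixture. Ebf1 fell into a high and a low range of CPM (a gene's UMIs scaled to a total of 1000000 UMIs in the same cells). The summed level of 7 other B lineage genes (Cd79b, Pax5, Vpreb3, Vpreb1a, Vpreb1b, Igll1 and Blnk) had a median over libraries of 70.7 CPM among the 2846 members with Ebf1 under 250 CPM. It was 2464 CPM among the 8845 members with Ebf1 at 4000 CPM or more. Members with Ebf1 under 1000 CPM or Cd79a under 200 CPM, 4514 in all and 26.1% of the members, are called low-level here. They carried 2 genes of granulocyte progenitors, Elane and Ctsg, at medians of 734 and 768 CPM, against 32.8 and 32.5 CPM in the other members. The macrophage and granulocyte lysozyme gene Lyz2 had a median of 10617 CPM in them against 1145 CPM, and the bone matrix collagen gene Col1a1 one of 3102 CPM against 219 CPM. B lineage genes were not uniformly low among them, since the summed level had a median of 589.8 CPM in the 526 members with Ebf1 from 500 to 1000 CPM.

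**Figure D1:**
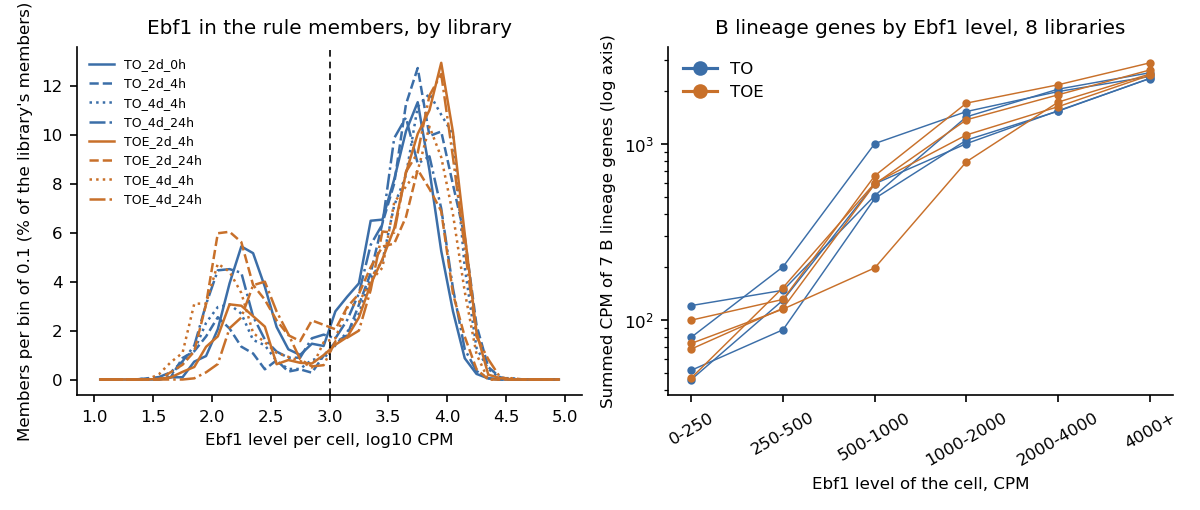
Left, the distribution of Ebf1 per member cell (log10 CPM) in each library, as percent of the library's members in bins of 0.1, with a dashed line at 1000 CPM. Right, the summed CPM of 7 B lineage genes (log axis) in members grouped by Ebf1 level, where medians over the 8 libraries run from 70.7 CPM under 250 CPM of Ebf1 to 2464 CPM at 4000 CPM or more.

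The remaining 12767 members, with Ebf1 at 1000 CPM or more and Cd79a at 200 CPM or more, are called high-level, and this division was made after the data were seen. The low-level share of members was 31.0% in TO_2d_0h, 16.2% in TO_2d_4h, 22.8% in TO_4d_4h and 30.0% in TO_4d_24h. It was 19.8% in TOE_2d_4h, 44.0% in TOE_2d_24h, 31.0% in TOE_4d_4h and 22.5% in TOE_4d_24h. TOE_2d_24h thus stood apart, with 66.8% of its member UMIs in low-level cells, while the other libraries held between 33.4% and 53.3%. Results are given for the rule members and again for the high-level members. Markers of other cell types were also found in high-level members, and whether they came from free RNA, doublets or other cells was not tested. The summed level of 8 neutrophil markers ranged from 2692 to 11797 CPM over libraries, and between 0.927% and 22.4% of the cells exceeded 10000 CPM. The highest share was in TO_2d_4h.

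Cells near the limits of the rule were common. Among members, 775 had exactly 2 UMIs of Ebf1, 1290 had 1 UMI of Mki67, 2691 had 1 UMI of Top2a and 2510 had 1 UMI of Cd79a. Just outside, with the other conditions met, were 631 cells with 1 UMI of Ebf1, 3522 with no Mki67, 7627 with no Top2a, 693 with 1 UMI of Dntt and 1147 with 1 UMI of Ms4a1. Members were deep cells, with library medians of 10467 to 19267 UMIs, and the high-level ones had 9267 to 14159 UMIs. In any pair of libraries 0 to 4 members shared a barcode. Scrublet doublet scores above 0.25 were found in 2.83% to 6.46% of members, and these cells were kept and left out in an alternative.

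The share of members was asked about first, since the arms differ in the shock waves. Of kept cells, rule members made up 15.1% (95% exact binomial interval 14.5 to 15.7) in TO_2d_0h, 14.1% (13.6 to 14.7) in TO_2d_4h, 14.6% (14 to 15.2) in TO_4d_4h and 14.3% (13.7 to 14.9) in TO_4d_24h. In the TOE arm they made up 20.7% (20.1 to 21.4) in TOE_2d_4h, 11.5% (11 to 12) in TOE_2d_24h, 13.3% (12.7 to 13.8) in TOE_4d_4h and 16.6% (16 to 17.3) in TOE_4d_24h. The 4 TO libraries lay close together, and the TOE libraries lay on both sides of them. High-level members ranged from 6.42% (6.03 to 6.83) in TOE_2d_24h to 16.6% (16.1 to 17.2) in TOE_2d_4h. These intervals cover counting error only.

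**Figure D2:**
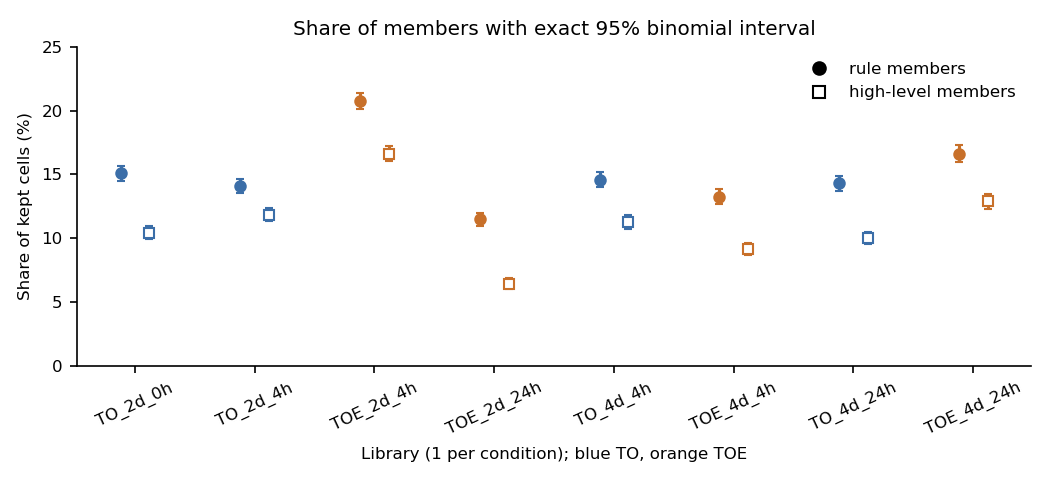
Share of kept cells (percent) that were rule members (filled circles) or high-level members (open squares) in each library, with exact 95% binomial intervals, blue for TO and orange for TOE. TOE_2d_4h is highest at 20.7% and TOE_2d_24h lowest at 11.5%.

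In the matched pair at day 2 and 4 h, the TOE share was 1.47 times the TO share (95% interval 1.39 to 1.55). At day 4 and 4 h the ratio was 0.909 (0.852 to 0.971), and at day 4 and 24 h it was 1.16 (1.09 to 1.24). The direction thus differed between pairs at the level of counting error, which leaves out the spread between animals. Among high-level members the ratios were 1.41 (1.33 to 1.49), 0.813 (0.753 to 0.878) and 1.29 (1.2 to 1.38). Over cells with Ebf1 and Cd79a in place of all cells, they were 1.23, 0.884 and 1.13 for rule members. Between the arms, over 4 libraries against 4, the log2 share differed by 0.06 (exact permutation test, two-sided, p = 0.714, adjusted over 3 tests p = 0.857). By day the difference was -0.03 (exact permutation p = 0.857, adjusted p = 0.857), and by hour, 4 h against 0 or 24 h, it was 0.12 (exact permutation p = 0.629, adjusted p = 0.857). The smallest unadjusted p this design allows is 0.0286. Adjusted over the 3 tests, no p could fall under 0.05, so these tests could not have counted a difference. In a suspension of cells, more members cannot be told apart from fewer cells of other types.

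How dividing members differ from their resting counterpart was examined first within each library. Resting cells met the same rule with 0 UMIs of Mki67 and Top2a, and numbered 33177, or 30577 above the same Ebf1 and Cd79a levels. UMIs were summed per library and population and fitted with the library as a block in edgeR. A gene was counted at an adjusted p under 0.05 and a fold of at least 2. Both populations were defined by UMIs of the same cells, so these contrasts describe what goes with the rule and are not independent of it. Of 16847 genes, 20.7% were counted for the rule members (11.9% higher, 8.76% lower). Of 15116 genes, 19.7% were counted for the high-level cells (12% higher, 7.74% lower), and values below are of high-level cells unless stated. Markers of other cells moved with this contrast in the rule members, where 4 of 4 granulocyte-monocyte progenitor markers were higher (median log2 difference 2.70), 4 of 10 erythroid markers were higher and 1 lower, and 5 of 8 neutrophil and 3 of 8 monocyte and macrophage markers were lower. In high-level cells 2 of 8 neutrophil markers were lower, 1 of 10 erythroid markers was higher, and none of the progenitor, monocyte and macrophage, or mesenchymal markers was counted. Their part in the differences from resting cells was not tested.

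Dividing members carried far more surrogate light chain RNA and far less Rag1 than resting cells. Igll1, the lambda-5 component of the surrogate light chain, lay between 221 and 340 CPM with a median of 307 CPM in the 8 members' profiles and between 15.7 and 47.2 CPM with a median of 30.4 CPM in the resting ones. The groups did not overlap, and the log2 difference was 3.46 ± 0.12 (SE, n = 8 libraries, adjusted p = 2.08e-11), an 11-fold higher level. Vpreb1a had a median of 22.9 CPM against 3.52 CPM (log2 difference 2.46), and Vpreb1b one of 14.7 CPM against 1.04 CPM (3.66). Each was higher in members in 8 of 8 libraries. Vpreb3, another gene of the family, moved the other way, with a median of 123 CPM against 436 CPM (log2 difference -1.64, lower in 8 of 8). In the rule members the log2 difference was 2.91 for Igll1, 1.98 for Vpreb1a, 3.23 for Vpreb1b and -2.04 for Vpreb3.

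Median depth was 9267 to 14159 UMIs in high-level members, 3452 to 4227 in resting cells and 3092 to 7518 in neutrophils, so every cell was also thinned to 4000 UMIs. An Igll1 UMI was then found in 28.2% to 40.9% of high-level members (unthinned 40.8% to 55.0%), in 5.05% to 10.1% of resting cells (unthinned 4.98% to 9.61%) and in 2.33% to 8.13% of neutrophils, which should lack it (unthinned 3.01% to 8.18%). The resting share overlapped the neutrophil background. The thinning left out 1249 rule members and 17550 resting cells that were shallower. A Vpreb1a UMI was found in 4.36% to 7.91% of thinned members, 0.888% to 3.44% of resting cells and 0% to 0.813% of neutrophils.

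Of 21 tested genes of the pre-B-cell receptor and its signalling, 3 were counted as higher and 4 as lower, with a median log2 difference of -0.62 against -0.00 over all genes, of which 12% were counted as higher and 7.74% as lower. For the rule members it was 3 higher and 10 lower (median -0.94). The 3 higher genes were the surrogate light chain genes above. Among the lower ones was Bank1, an adaptor of the B-cell receptor, at a median of 11.7 CPM against 63.3 CPM (log2 difference -2.44). Cd24, a surface glycoprotein high in B-cell precursors, had a median of 1005 CPM against 785 CPM. Its log2 difference of 0.55 ± 0.08 (adjusted p = 3.47e-05) did not reach a fold of 2.

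Interleukin-7 signalling genes were counted in part, 3 of 19 higher and 1 lower (median log2 difference -0.15), and at 21.1% the share counted was near the 19.7% of all genes. Il7r, the receptor's alpha chain, had a lowest value of 70.7, a median of 87.5 and a highest of 155 CPM in members, and 29.7, 46.5 and 54.5 CPM in resting cells. The 2 groups of values did not overlap (log2 difference 1.16 ± 0.11, adjusted p = 4.2e-07). In the rule members the difference was 0.61 and did not reach a fold of 2, nor did it in high-level cells thinned to 4000 UMIs. Ccnd3, the cyclin that pre-B cells need for division, was 4.82-fold higher, with a median of 345 CPM against 76.7 CPM, and Myc was higher by a log2 difference of 1.43. Stat5b, a transcription factor downstream of the receptor, was lower (-1.05).

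Recombination genes divided. Rag1 had a lowest value of 25.7, a median of 45.0 and a highest of 56.5 CPM in members, and 271, 415 and 469 CPM in resting cells, so that it was lower in 8 of 8 libraries (log2 difference -3.21 ± 0.08, adjusted p = 9.15e-13). Thinned to 4000 UMIs, 9.16% to 18.8% of members and 43.0% to 60.2% of resting cells had a Rag1 UMI, against 1.02% to 2.67% of neutrophils. Rag2, which forms the recombinase with Rag1, had medians of 33.1 and 40.9 CPM and a log2 difference of -0.30 that did not reach a fold of 2. The ligase gene Lig4, which closes the joints, was lower (-1.86). Hmgb1 and Hmgb2, chromatin proteins that assist the recombinase and are also abundant in dividing cells, were higher by 2.65 and 3.80.

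Of all genes, 12% were counted as higher and 7.74% as lower, which stands beside the counts of high-level cells here. Of 9 tested genes of light chains and MHC class II, 6 were lower and 0 higher, with a median log2 difference of -2.01. The light chain constant gene Iglc1 had a highest value of 0.905 CPM in members and a lowest of 1.55 CPM in resting cells, near the bottom of the scale. It was the only light chain gene tested, since Igkc, Iglc2 and Iglc3 were not matched, and the other tested genes belong to MHC class II. The invariant chain gene Cd74 had medians of 110 and 582 CPM (log2 difference -2.43), and the class II genes RT1-Ba and RT1-Bb differed by -2.05 and -2.17. Of 29 B lineage transcription factor genes, 1 was higher and 6 were lower, a share of 24.1% against 19.7% of all genes, and for the rule members the shares were 20.7% and 20.7%. Lef1, a factor of early B-cell precursors, was higher (1.33), while Bach2, Ikzf3 and Tcf4 were lower (-1.44, -1.09 and -1.11). Lef1 was not counted in the rule members or after thinning, and neither Ikzf3 nor Stat5b was counted after thinning. Among 19 surface genes of B-cell stages, 3 were higher, including Spn, which encodes CD43 of early precursors (1.88), and 3 were lower, including Cd38 (-1.47), Cd40 (-1.34) and the low-affinity IgE receptor gene Fcer2 (-1.90).

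The machinery of division followed the rule that chose the cells, and is given as a description. Mki67 and Top2a were at 0 in resting cells by definition. All 47 tested S phase genes were higher, led by E2f8, Clspn, Rrm2 and Uhrf1 (log2 differences 5.28, 5.03, 4.98 and 4.75). Of 50 genes of G2 and M phase, 48 were higher, among them Nusap1 (5.35), Ect2 (5.23), Bub1 (5.21) and Kif2c (5.12). The largest differences over all genes with a mean of at least 20 CPM were those of the histone gene H2ac10 (5.75), the cohesin acetyltransferase gene Esco2 (5.48), the glycosylase gene Neil3 (5.45) and the shugoshin gene Sgo2 (5.41). In the other direction the channel gene Trpc4 differed most (-4.16).

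Growth went with division in part. Of all genes, 12% were counted as higher and 7.74% as lower, which stands beside the list counts here. Of 22 genes of growth and ribosome assembly, 8 were higher and 0 lower (median log2 difference 0.82), among them the nuclear transport gene Ran (2.73), the spermidine synthase gene Srm (2.21) and the nucleolar genes Nop56 (1.24) and Fbl (1.22). Of 16 glycolysis genes, 7 were higher and 0 lower, including Gapdh (1.74), Ldha (1.29), Pgk1 (1.18) and Pfkp (1.16), of which Pgk1 was not counted after thinning. Of 14 cell cycle inhibitor genes, the kinase inhibitor genes Cdkn2c (3.4) and Cdkn2d (1.02) and the pocket protein gene Rbl1 (3.14) were higher and the antiproliferative gene Btg1 (-1.12) was lower. Cdkn2d was not counted in the rule members, and Btg1 was not counted after thinning. Tp53inp1, a p53 target, was the 1 counted gene among 14 of its list and was lower (-1.97). The share counted in that list, 7.14%, was below the 19.7% of all genes. The glucocorticoid-induced Fkbp5 was higher (1.46), while 4 of the 12 genes of its list were lower, including Pik3ip1 (-1.85). Jchain, which links immunoglobulin polymers in plasma cells, was higher (2.10), and the other 5 plasma cell genes were not counted. The share counted among plasma cell genes, 16.7%, was also below that of all genes.

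Members were next set beside dividing cells one stage earlier. Cycling Dntt-positive cells met the rule with at least 1 UMI of Dntt. They numbered 1424, of which 1121 were high-level, with 65 to 287 cells per library and median depths of 15331 to 20811 UMIs. At an adjusted p under 0.05 with no limit on the fold, 20.8% of 15476 genes were counted for the rule members (11.1% higher, 9.63% lower). For high-level cells it was 32.6% of 13631 genes (16.3% higher, 16.3% lower). Without the library block the count for the rule members fell from 3214 to 414 genes.

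Beside 16.3% of all genes each way, the pre-B-cell receptor and its signalling had 12 of 21 genes higher in members and 7 lower (median log2 difference 0.30). For the rule members it was 9 and 7, beside 11.1% higher and 9.63% lower of all genes. The surrogate light chain genes Igll1, Vpreb1a and Vpreb1b were among the lower ones. Igll1 had a lowest value of 543, a median of 882 and a highest of 1139 CPM in Dntt-positive cells, all above the members' highest value of 340 CPM (log2 difference -1.50 ± 0.08, members lower in 8 of 8 libraries, adjusted p = 4.72e-09). Vpreb1a had medians of 22.9 and 70.4 CPM and a log2 difference of -1.72. The difference of Vpreb1b was -1.52, with overlapping values. Vpreb3 took the opposite order again, with medians of 123 CPM in members and 64.7 CPM in Dntt-positive cells (0.92, higher in 8 of 8 libraries). After thinning, 62.3% to 86.1% of Dntt-positive cells had an Igll1 UMI, above every library of members.

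**Figure D3:**
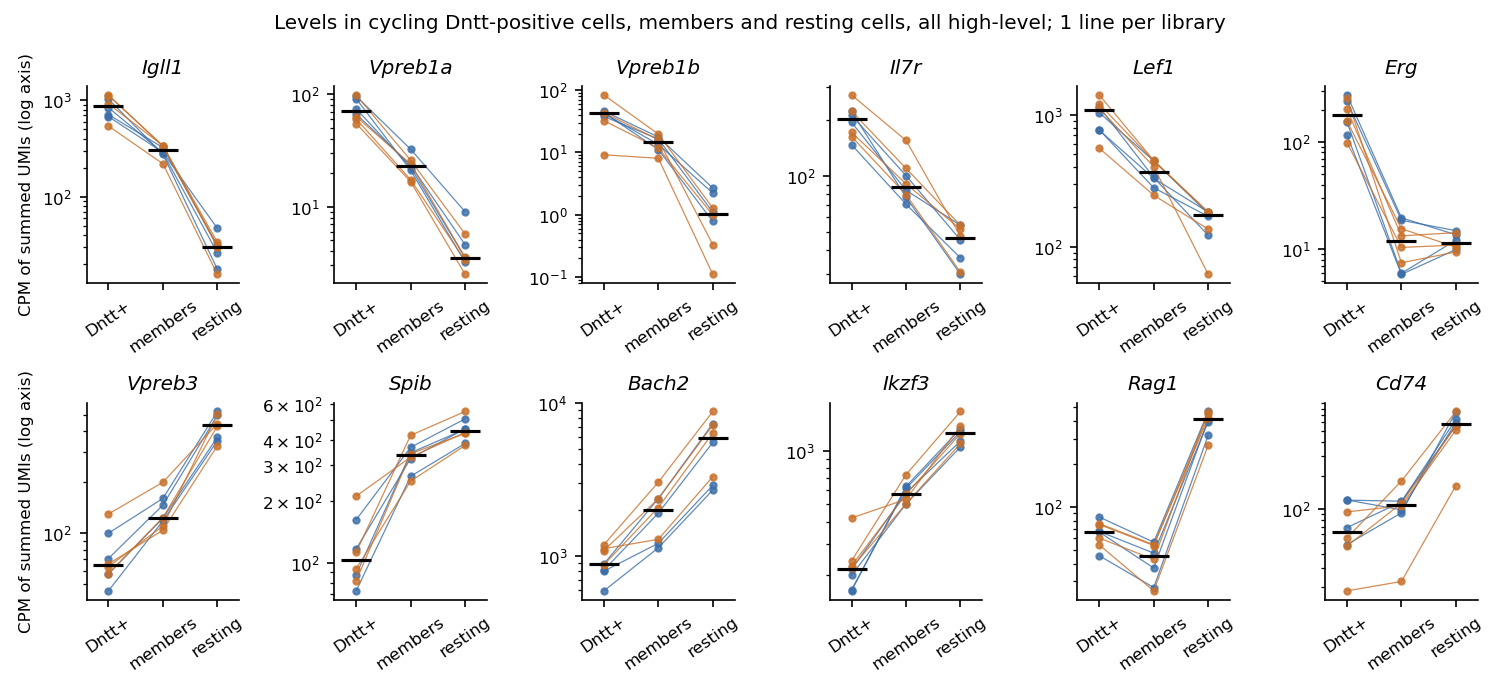
CPM of summed UMIs (log axis) of 12 genes in cycling Dntt-positive cells, members and resting cells, all high-level, with 1 line per library (blue TO, orange TOE) and black bars at the medians. Igll1 falls from a median of 882 to 307 and 30.4 CPM, while Vpreb3 climbs from 64.7 to 123 and 436 CPM and Rag1 is lowest in the members at 45.0 CPM.

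Of 19 interleukin-7 signalling genes, 6 were lower in members than in Dntt-positive cells, 3 were higher and 10 were not counted (median log2 difference -0.08 against 0.01 over all genes, of which 16.3% were counted each way). Il7r had medians of 87.5 and 203 CPM (log2 difference -1.08 ± 0.06, adjusted p = 1.32e-08), and was lower in 8 of 8 libraries with some overlap between libraries. The feedback genes Cish and Socs2, which are induced by STAT5, were lower by -2.77 and -1.03, and Stat5a by -0.93. Cish was low in both populations, with medians of 1.31 and 9.63 CPM.

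Of 29 B lineage transcription factor genes, 16 were higher in members and 6 lower (median log2 difference 0.28 against 0.01 over all genes, of which 16.3% were counted each way). For the rule members it was 10 higher and 7 lower (median 0.09). Erg, a factor of stem cells and early lymphoid progenitors, had a highest value of 19.6 CPM in members and a lowest of 98.2 CPM in Dntt-positive cells (log2 difference -4.04 ± 0.17, adjusted p = 2.92e-10). In members its median of 11.8 CPM was near the bottom of the scale. Lef1 was lower as well (-1.42), and its median followed the order of Igll1, at 1078 CPM in Dntt-positive cells, 369 CPM in members and 174 CPM in resting cells. Spib, Ikzf3 and the Fc receptor-like gene Fcrla were higher by 1.56, 1.39 and 1.59, none of them with overlapping values. Egfl7, a secreted protein gene of endothelial and progenitor cells, differed by -4.29. Among counted genes with a mean of at least 20 CPM, LOC102550135 had the largest fall (-6.98) and Mybpc2 the largest rise (1.68).

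Of 18 tested surface genes of B-cell stages, 4 were higher in members and 7 lower (5 and 6 in the rule members), beside 16.3% of all genes each way. The progenitor receptor gene Flt3 was lower (-1.34), and so was the complement receptor gene Cr2 (-1.02). Kit, a receptor of early progenitors, was lower by -2.67, but after thinning 0.219% to 0.972% of members and 0% to 2.00% of neutrophils had a Kit UMI, so that its level in members was at the background. The sphingosine phosphate receptor gene S1pr1 was higher (0.92), as was the class II gene RT1-Db1 (0.89). Of 8 tested light chain and MHC class II genes, 2 were higher and 2 lower (2 and 0 in the rule members). Rag1 was lower by 0.63 on the log2 scale in members than in Dntt-positive cells, with medians of 45.0 and 66.9 CPM, so that the members had the lowest Rag1 of the 3 populations in every library. Lig4 was higher (0.65), and of 13 recombination genes 4 were higher and 3 lower (1 and 2 in the rule members).

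Differences in cell cycle genes were small. Of all genes, 16.3% were counted each way, which stands beside the list counts of high-level cells here. Both populations needed UMIs of Mki67 and Top2a, and Dntt-positive cells were deeper (medians of 15331 to 20811 against 9267 to 14159 UMIs). With cells thinned to 4000 UMIs, 2473 of 10643 genes were counted for high-level cells, against 4448 of 13631 unthinned. The part of depth in the list counts was not tested. Of 47 S phase genes, 39 were higher in members and 2 lower, among them Ccne2 (0.69), Ccne1 (0.65) and Cdc6 (0.60). Of 50 genes of G2 and M phase, 23 were higher and 4 lower. In the rule members 18 and 4 were higher and 2 of each list lower, beside 11.1% higher and 9.63% lower of all genes. The 12% of G2 and M phase genes counted there lay below the 20.8% of all genes. The ratio of the summed S phase list to the summed G2 and M list was higher in high-level members than in Dntt-positive cells in 6 of 8 libraries (medians 0.566 and 0.471) and lower in TOE_4d_4h and TOE_4d_24h. Of 14 cell cycle inhibitor genes, 9 were higher and 1 lower, including Btg1 (0.59), Btg2 (0.57) and Cdkn2d (0.54). Of 22 growth genes 11 were lower and 0 higher, including Srm (-0.43), Wdr43 (-0.35) and Fbl (-0.30). Glycolysis genes were lower in 11 of 15, including Hk1 (-0.74), Eno1 (-0.57) and Pgk1 (-0.43), and higher in 0. In the rule members that list had 2 lower and 1 higher of 16, and Hk1, Eno1 and Srm were not counted. The proapoptotic gene Bbc3 was higher (0.61) and Bid lower (-0.30).

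**Figure D4:**
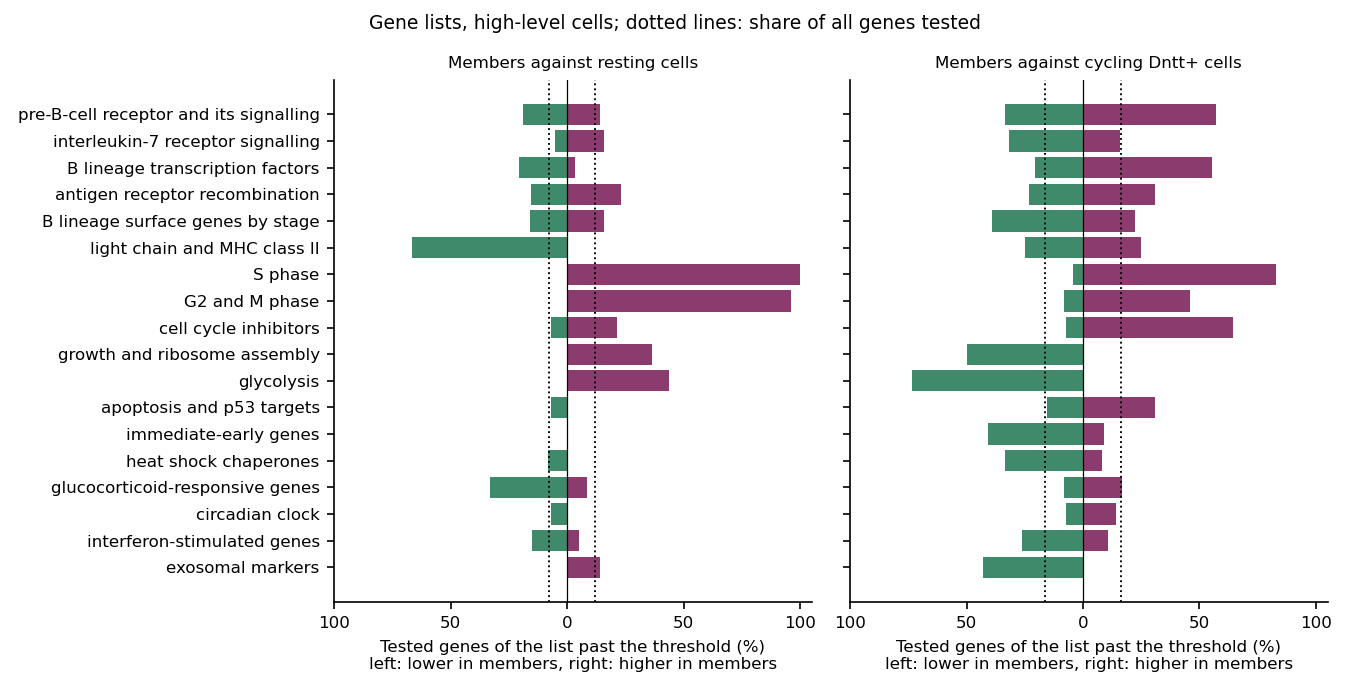
Share of the tested genes of each list that passed the threshold, lower in members to the left and higher to the right, for high-level members against resting cells and against cycling Dntt-positive cells. Dotted lines mark the shares of all genes tested (12% higher and 7.74% lower, and 16.3% each way); the S phase list reaches 47 of 47 genes against resting cells.

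Markers of bone-forming cells moved with this contrast. Of all genes, 11.1% were counted as higher and 9.63% as lower in the rule members, and 16.3% each way in high-level cells. All 5 tested mesenchymal genes were higher in the rule members, and all 4 tested were higher in the high-level members, where Col1a1 had medians of 219 and 101 CPM (log2 difference 1.01) and Sparc of 75.3 and 33.2 CPM (0.90). Sparc and Col3a1 were not counted after thinning. The summed level of the 5 genes ranged from 199 to 1289 CPM in high-level members. None of the 10 erythroid genes was counted in the high-level cells, whereas 9 were higher in the rule members. In the rule members 5 of 8 monocyte and macrophage markers were also higher and 3 of 4 granulocyte-monocyte progenitor markers lower. In high-level cells 2 of 8 and 1 of 4 of these were lower, and 3 of 6 plasma cell markers were higher. Their part in the other differences was not tested.

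Whether the members' expression differed between the arms was fitted over all 8 libraries, with day and hour as further terms and libraries of other days and hours standing in as replicates. A difference between arms that varies with day or hour goes into the error of this fit. A count of 0 therefore cannot tell no difference from one that varied. By arm, 0% of 17666 genes were counted in the rule members and 0% of 15746 in the high-level members by edgeR, with 776 and 715 genes at an unadjusted p under 0.05. By day the share was also 0%, with 205 and 274 genes at an unadjusted p under 0.05, and DESeq2 counted 0 genes by arm and 3 by day in the rule members. Igll1 had values of 338, 221, 338 and 340 CPM in TOE_2d_4h, TOE_2d_24h, TOE_4d_4h and TOE_4d_24h, and of 289, 286, 276 and 325 CPM in TO_2d_0h, TO_2d_4h, TO_4d_4h and TO_4d_24h. The arms overlapped, and the log2 difference, TOE minus TO, was -0.01 ± 0.16 (adjusted p = 0.989). Vpreb1a differed by -0.32 ± 0.13 (adjusted p = 0.771), Il7r by 0.32 ± 0.22 (adjusted p = 0.771) and Rag1 by 0.01 ± 0.18 (adjusted p = 0.993).

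In the matched pairs, with 1 library on each side, genes past a fold of 2 were counted without a test. For the rule members these were 7.08% of 15192 genes at day 2 and 4 h, 4.53% of 15310 at day 4 and 4 h and 19% of 15306 at day 4 and 24 h. For high-level members they were 8.13%, 3.45% and 18.7%. The pair at day 4 and 24 h thus stood apart. There the erythroid genes Hba-a1 and Slc4a1 went from 1247 and 24.5 CPM in TO_4d_24h to 4.48 and 0.0453 CPM in TOE_4d_24h in the high-level members, and all 10 erythroid markers were past a fold of 2. In the same pair 7 of 8 neutrophil markers were past a fold of 2 and higher in TOE (median log2 ratio 1.56), as were 3 of 4 granulocyte-monocyte progenitor markers and 3 of 3 mast cell and basophil markers. At day 2 and 4 h, 20.9% of high-level members in TO_2d_4h and 1.99% in TOE_2d_4h exceeded 10000 CPM of erythroid markers, and 4 of 10 of these markers were past a fold of 2, all lower in TOE. At day 4 and 4 h, 5 of 8 monocyte and macrophage markers were past it, all higher. The erythroid drop at day 4 and 24 h was also found outside the members, since the summed erythroid level went from 2865 to 28.3 CPM in high-level resting cells and from 5340 to 43.5 CPM in neutrophils. The part of these marker shifts in the other differences was not tested.

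Of 50 genes of G2 and M phase, 11 were past a fold of 2 at day 2 and 4 h in high-level members, all higher in TOE (median log2 ratio 0.73 against 0.07 over all genes, of which 8.13% were past it). Among rule members it was 6 of 50. At day 4 and 24 h the count was 7 of 50, all higher (0.45 against 0.09), a share of 14% below the 18.7% of all genes, and at day 4 and 4 h it was 0 of 50 (-0.17 against 0.04). S phase genes had 1 of 47 past that limit at day 2 and 4 h (median 0.29), 0 at day 4 and 4 h (-0.08) and 3 at day 4 and 24 h (-0.27). The ratio of the summed S phase list to the summed G2 and M list was 0.643 in TO_2d_4h and 0.498 in TOE_2d_4h, 0.548 in TO_4d_4h and 0.582 in TOE_4d_4h, and 0.615 in TO_4d_24h and 0.395 in TOE_4d_24h. It was 0.593 in TO_2d_0h and 0.551 in TOE_2d_24h. Membership needs UMIs of Mki67 and Top2a, so this ratio and the share of members are both tied to the rule. Il7r had log2 ratios of 0.39, 0.24 and 1.14 in the 3 pairs in that order, and Igll1 had ratios of 0.24, 0.29 and 0.07. Both turned at day 4 and 4 h in the rule members, with 0.30, -0.11 and 1.34 for Il7r and 0.18, -0.06 and 0.29 for Igll1. Immediate-early genes had 6, 0 and 12 of 22 genes past a fold of 2 in high-level members, all lower in TOE, and 2, 0 and 7 of 22 in the rule members, where the shares over all genes were 8.13%, 3.45% and 18.7% for high-level and 7.08%, 4.53% and 19% for rule members.

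By edgeR, the hour of collection was the 1 factor of the 3 with counted genes. In the rule members 0.911% of 17666 genes differed between 4 h and 0 or 24 h (0.459% higher at 4 h, 0.453% lower). That is 161 genes, where DESeq2 counted 1749. In high-level members edgeR counted 11.8% of 15746 genes (5.72% higher, 6.12% lower), which is 1863 genes. The edgeR count of 1863 moved widely when 1 library was left out, which also leaves fewer libraries to test with. It was 54 without TO_2d_0h, 64 without TO_4d_4h, 109 without TO_4d_24h and 151 without TO_2d_4h. It was 715 without TOE_4d_4h, 1186 without TOE_2d_24h, 1518 without TOE_2d_4h and 4016 without TOE_4d_24h. For the rule members it was 0 without TO_4d_4h, TOE_2d_4h or TOE_4d_4h, 1 without TO_2d_0h, 3 without TO_2d_4h, 4 without TO_4d_24h and 1899 without TOE_4d_24h. Hours were not spread evenly, with 0 h in 1 library and 24 h in 3. Of 25 genes checked singly that were counted in high-level members, 20 were not counted in the rule members, and 4 were counted in each of the 8 fits that left out 1 library. These 4 were the plasma cell gene Jchain, the mast cell and basophil protease gene Prss34, the small nucleolar RNA gene Snord118 and the protease gene Prss29. Among genes with a mean of at least 20 CPM, Prss29 had the largest difference by hour (log2 difference -7.43).

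Of 19 interleukin-7 signalling genes, 3 were higher at 4 h in high-level members and 0 lower, beside 5.72% and 6.12% of all genes, and 1 was higher in the rule members beside 0.459%. These were Socs2, Cish and Socs1, feedback inhibitors of cytokine receptors. Socs2 had 48.2, 47.6, 39.6 and 53.7 CPM in the 4-h libraries TO_2d_4h, TO_4d_4h, TOE_2d_4h and TOE_4d_4h, against 19.6, 27.3, 15.6 and 21.1 CPM in TO_2d_0h, TO_4d_24h, TOE_2d_24h and TOE_4d_24h. The groups did not overlap (log2 difference 1.13 ± 0.15, adjusted p = 0.0101), and Socs2 was also counted in the rule members (1.17). Cish and Socs1 were higher by 1.95 and 0.98, again without overlap, at 1.77 to 3.41 against 0.407 to 0.847 CPM for Cish. Socs2 was counted in 6 of the 8 fits without 1 library in high-level members and in 2 of 8 in the rule members. In high-level members Cish was counted in 4 and Socs1 in 3, and the latter 2 were not counted in the rule members. Cish and Socs2 were higher at 4 h in resting cells too, at 28.4 to 35.3 against 13.4 to 20.3 CPM for Socs2, and in neutrophils, at 26.6 to 40.9 against 12.4 to 22.2 CPM. The gap was thus present outside the members as well. The other 16 genes of the list were not counted, among them the feedback inhibitor gene Socs3 (0.43, adjusted p = 0.572).

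Of 21 genes of the pre-B-cell receptor and its signalling, 3 were lower at 4 h and 2 higher, including the phospholipase gene Plcg2 (0.43), beside 6.12% lower and 5.72% higher of all genes, and 0 of 21 were counted in the rule members. Cd79b had 204 to 283 CPM at 4 h and 329 to 357 CPM at the other hours (log2 difference -0.53, adjusted p = 0.0386). Vpreb1a had 16.7 to 22.4 against 23.4 to 32.4 CPM (-0.52, adjusted p = 0.0412). None of these was counted in the rule members, and without 1 library Cd79b was counted in 2 of 8 fits and Vpreb1a and Plcg2 in 1 each. Igll1 differed by 0.01 and Cd24 by -0.00 and were not counted. Of 14 genes of apoptosis and p53 targets, 1 was higher, Tp53inp1 (1.11), and 1 lower, Bax. Of 12 heat shock chaperone genes, 1 was higher, Hsph1 (1.08), and 1 lower, Hspa8. Of 13 recombination genes, 0 were higher and 3 lower, among them Hmgb2 (-0.63). None of these named genes was counted in the rule members. Without 1 library, Tp53inp1, Hsph1 and Hmgb2 were counted in 4, 4 and 3 of 8 fits.

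Among the genes with the largest differences by hour, Hist1h2ah, a replication histone gene, had 50.8, 58.7, 47.5 and 53.7 CPM in the 4-h libraries TO_2d_4h, TO_4d_4h, TOE_2d_4h and TOE_4d_4h. It had 396, 401, 351 and 497 CPM in TO_2d_0h, TO_4d_24h, TOE_2d_24h and TOE_4d_24h (log2 difference -3.03 ± 0.12, adjusted p = 6.29e-05). The small nucleolar RNA gene Snord118 had 2.29 to 4.45 against 19.1 to 30.9 CPM (-2.93), and Jchain 87.8 to 119 against 338 to 580 CPM (-2.21). Jchain was not counted in the rule members, where Hist1h2ah and Snord118 were counted in 2 of the 8 fits without 1 library. The same gaps were present in cells that are not B cells. In neutrophils Hist1h2ah had 3.94 to 11.4 CPM at 4 h and 21.2 to 42.2 CPM otherwise, Snord118 had 0.831 to 2.52 and 6.12 to 26.3 CPM, and Jchain had 1.94 to 4.43 and 22.6 to 28.5 CPM. The mast cell and basophil protease gene Prss34 moved with them in members, at 0.143 to 1.09 against 5.44 to 24.9 CPM, and was counted in 3 of those 8 fits. Of 8 monocyte and macrophage markers, 3 were lower at 4 h in high-level members and 0 in the rule members. Mesenchymal and erythroid markers had median log2 differences of -1.04 and 0.99 in high-level members and of -1.93 and 1.29 in the rule members, with none counted. Their part in the hour results was not tested. The hour and any handling shared by libraries of that hour cannot be told apart.

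**Figure D5:**
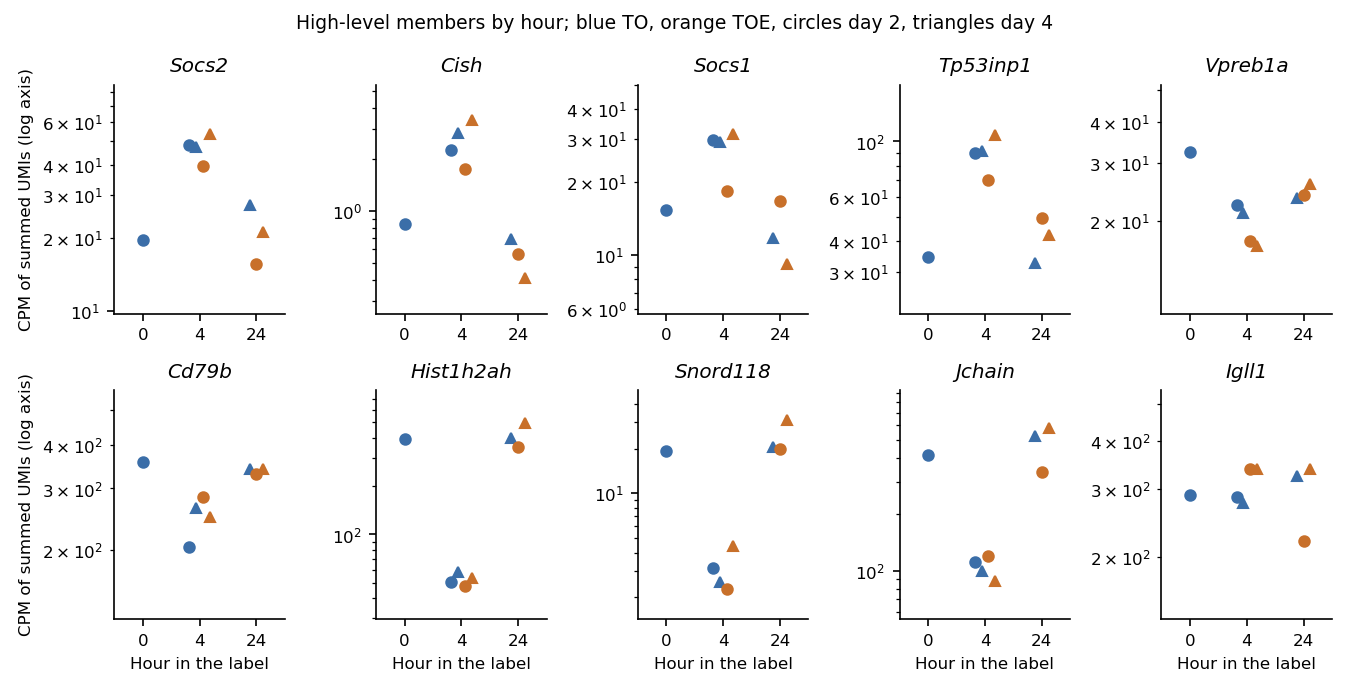
CPM of summed UMIs (log axis) in high-level members by hour in the label, 1 point per library, blue TO, orange TOE, circles day 2 and triangles day 4. The 4-h libraries lie above the others for Socs2 (39.6 to 53.7 CPM) and Cish and below them for Hist1h2ah, Snord118, Jchain and Cd79b, while Igll1 shows no such gap.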

How the data were processed

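Raw UMI counts per gene and barcode were deposited by the authors for each library, without normalization, from Cell Ranger 9.0.0. The submitters' processing notes also name Seurat, R 4.0.3 and the builds mRatBN7.2 and GRCh38, without their roles. The members and the gene lists were chosen with earlier results of these data known. Kept cells had 200 genes or more, with the mitochondrial share of UMIs no higher than 20%. Libraries held 95954800 to 144146202 UMIs in all and 12329 to 16945 kept cells.

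UMIs were summed per library and population. Genes were tested with edgeR 4.0.16 (quasi-likelihood test, TMM, Benjamini-Hochberg adjustment) in R 4.3.3, with library as a block between populations and arm, day and hour as additive terms otherwise. Standard errors of the edgeR log2 differences were taken as the size of the difference over the square root of the test's F statistic. Populations needed 20 cells in a library, and genes of the rule were left out of counts. The edgeR fits of rule members against resting cells and by hour were tested on simulated data, and the other fits were not. Shares had exact Clopper-Pearson intervals at 95%, ratios of shares exact conditional intervals, and group differences exact permutation tests (scipy 1.17.1). In pairs, log2 ratios took genes with at least 50 UMIs and a prior of 0.5 UMI. Neutrophils had at least 5 UMIs of S100a8 and of S100a9 with no Ebf1 or Cd79a. Doublets were scored with Scrublet in scanpy 1.11.5. Sequences came from RefSeq tables (GRCr8). The genes Ighm, Igkc, Iglc2, Iglc3, Ighd and Trac of the lists were not matched by symbol.

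Named genes were drawn from those of the rule and the series markers, up to 4 per list by the largest change among counted genes, the 5 largest rises and falls per test at a mean of at least 20 CPM, and the 5 largest rises and falls per pair. Vpreb3, Cd24, Rag2, and the genes shown beside a result that fell outside this choice were chosen after their values were seen. Not every gene of the choice is shown in the text, and most of those from the pairs are left out. Alternatives were stricter filters, no doublets, Mki67 and Top2a at 2 UMIs or more, thinning to 4000 or 2000 UMIs, another denominator, DESeq2 1.42.0, no TMM, no gene filter, no block, other priors and minimum counts, and leaving out each library. The high-level division and its refits were added after the data were seen.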

Additional observations from a re-analysis of the deposited data

Results flagged for a closer look

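Among the TOE libraries, Igll1 in high-level members was 221 CPM in TOE_2d_24h, far from the other 3, which lay between 338 and 340 CPM. This library also had the largest low-level share of members, 44.0%. Of 90 sets of libraries examined for a sample far from the rest, 1 was marked, where chance alone marks about 1 in 20.

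The share of members, TOE over TO, was 1.47 at day 2 and 4 h, 0.909 at day 4 and 4 h and 1.16 at day 4 and 24 h, so that pairs differed in direction beyond counting error. The difference between the pairs was not tested, since each rests on 1 library per side.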

How the results depend on the processing

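The directions of the TOE over TO share ratios held under every alternative run. At day 2 and 4 h the ratio moved to 1.69 with Mki67 and Top2a at 2 or more, 1.6 and 1.61 with cells thinned to 4000 and 2000 UMIs, 1.23 over cells with Ebf1 and Cd79a, and 1.59 in thinned high-level members. At 2000 UMIs every cell that meets the rule is high-level, so this thinning changes the depth and the Ebf1 level together. At day 4 and 4 h it moved to 0.818 and 0.679 under thinning, 0.813 in high-level members and 0.811 in thinned ones, and at day 4 and 24 h to 1.25 thinned to 2000 UMIs and 1.29 in high-level members. Genes counted against resting cells were 2409 in thinned rule members against 3481, 2166 in thinned high-level cells against 2979 unthinned, and 3409 to 3551 leaving out 1 library (2931 to 3038 in high-level cells). Against Dntt-positive cells they were 414 with no library block, 2115 thinned and 2221 to 3732 leaving out 1 library (3642 to 4628 high-level). Thinned high-level cells had 2473 against 4448 unthinned. By day DESeq2 counted 3 genes. By hour the rule members had 161 genes by edgeR, 1749 with DESeq2 and 295 without TMM. High-level members had 1863 by edgeR and 2942 with DESeq2. Leaving out 1 library gave 0 to 1899, and in high-level members 54 to 4016, with 64 without TO_4d_4h, 1518 without TOE_2d_4h, 1186 without TOE_2d_24h and 715 without TOE_4d_4h. By arm and by day, leaving out 1 library gave 0 to 0 genes. Genes past a fold of 2 in the pairs of rule members were 439, 311 and 1732 with at least 200 UMIs, against 1075, 693 and 2910 with at least 50. The shares were 3.64%, 2.58% and 14.4% against 7.08%, 4.53% and 19%. No gene named with a direction from the fits across all genes changed sign in an alternative run for it, while the pair ratios of Igll1 and Il7r at day 4 and 4 h turned from 0.29 and 0.24 in high-level members to -0.06 and -0.11 in the rule members. The 3 pairs matched by day and hour, fitted with the pair as a block, counted 0 genes by arm.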

Other observations

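Genes past a fold of 2 in the same direction in all 3 matched pairs numbered 7 higher and 3 lower in TOE among the rule members, out of 14392 genes with enough UMIs in every pair. In high-level members they numbered 2 higher and 1 lower out of 12810, and only Hp, the haptoglobin gene, was among the higher genes of both. These counts have no test.

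Exosomal markers were listed because the study follows vesicles. Of 7 such genes in high-level members, 0 were past a fold of 2 at day 2 and 4 h and at day 4 and 4 h and 1 at day 4 and 24 h. The median log2 ratios were 0.38, 0.18 and 0.50, against 0.07, 0.04 and 0.09 over all genes, of which 8.13%, 3.45% and 18.7% were past a fold of 2. In the rule members 0 of 7 were past it in each pair, and the medians were 0.60, 0.14 and -0.06, so that the sign turned at day 4 and 24 h.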
